A study of Mus musculus with 30 samples.

Results

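Transcripts of 10 nuclear genes that encode chaperones and proteases of mitochondria were followed through mouse macrophages given IL-4, prostaglandin E2 (PGE2) or the potassium ionophore valinomycin. The members were taken by symbol and were Hspd1, Hspe1, Hspa9, Dnaja3, Trap1, Lonp1, Clpp, Afg3l2, Yme1l1 and Oma1, which are 10 of the 43629 gene identifiers counted in every library. All 10 were found, and all 10 passed the filter on low counts in both experiments. By its title, the study concerns how the voltage across the inner mitochondrial membrane bears on transcription in the nucleus when PGE2 acts on macrophages. Levels are given in CPM, which scales a gene's reads to the size of its library.

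Every library came from bone marrow derived macrophages of C57BL/6 mice grown to day 7 in the growth factor CSF-1 (20 ng/mL). The wild type experiment had 12 libraries, 3 each: no stimulus, IL-4 alone (20 ng/mL), IL-4 plus 10 µM PGE2, and IL-4 plus 10 nM valinomycin. The shRNA experiment had 18 libraries of lentivirus-infected cells that carried a control hairpin or a hairpin against the ETS-family transcription factor Etv1, with 3 libraries each of no stimulus, IL-4, and IL-4 with PGE2. Every PGE2 and valinomycin library therefore also had IL-4, and every library had CSF-1. How long cells were stimulated is not stated in the labels. Nothing in them ties replicates to separate animals or dishes, so each p-value covers only variation among the libraries at hand, part of which could be technical.

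Mitochondria import most of their proteins unfolded from the cytosol, and the matrix folds them with HSP60 and its lid HSP10 (Hspd1 and Hspe1) and with mitochondrial HSP70 (Hspa9), its J-domain partner (Dnaja3) and the HSP90 homologue TRAP1. Damaged or surplus proteins are degraded in the matrix by LONP1 and by CLPP, which works with the unfoldase CLPX, and in the inner membrane by AFG3L2 and YME1L1. OMA1 is an inner membrane protease that is activated when the membrane potential falls, and it cleaves OPA1 and DELE1, the latter a trigger of the integrated stress response through the kinase HRI and the factor ATF4. Raised expression of these chaperones and proteases is the usual readout of the mitochondrial unfolded protein response in mammals.

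In GENCODE M21 on GRCm38, Hspd1 lies at chr1:55077835-55088243 (minus strand), Hspe1 at chr1:55088132-55091307 (plus strand), Dnaja3 at chr16:4639989-4707695 (plus strand) and Trap1 at chr16:4039971-4077827 (minus strand). Of the proteases, Lonp1 lies at chr17:56614297-56626887 (minus strand), Clpp at chr17:56990305-56996188 (plus strand), Yme1l1 at chr2:23156369-23199260 (plus strand) and Oma1 at chr4:103313812-103371868 (plus strand).

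Hspd1 and Hspe1 lie head to head on chromosome 1, and promoter letters are shown for the gene pair and for 2 members that moved in opposite directions with PGE2. The RefSeq table of promoter windows (GRCm38.p6, 250 bases before to 50 after each start) held 8 of the 10 members, with 2 windows for Hspd1. Hspa9 and Afg3l2 were not matched. The Hspe1 start is at chr1:55088148 on the plus strand, and the Hspd1 starts are on the minus strand at chr1:55087932, 216 bases away, and at chr1:55088243. Each site below is 30 bases, 5′ to 3′ on the strand of the named gene, with the searched letters in capitals.
Hspe1 heat shock element, chr1:55088053-55088082, plus strand: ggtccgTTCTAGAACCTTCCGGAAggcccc
Hspe1 C/EBP-CHOP core, chr1:55087937-55087966, plus strand: acgccggggcccTGCAATctgcatgcggcg
Trap1 cyclic AMP response element, chr16:4077839-4077868, minus strand: gtcgcgcgccaTGACGTCActgagccgccc
Lonp1 E-box, chr17:56626922-56626951, minus strand: cgcgagcgtcatCACGTGcgcaaacggggg

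The heat shock element and the C/EBP-CHOP core both lie between the Hspe1 start and the Hspd1 start at chr1:55087932, upstream of both, and downstream of the other Hspd1 start at chr1:55088243. Each motif was searched on both strands of 32851 windows. The heat shock element with 3 units (TTCNNGAA followed by NNTTC) was in 0.603% of windows, and among the members only in those of Hspd1 and Hspe1, where 2 overlapping matches make up the printed run. Its shorter form with 2 units (TTCNNGAA), which every such 3-unit match contains, was in 8.52% and was also found in the Clpp window. The C/EBP-CHOP core (TGCAAT) was in 8.4%, the cyclic AMP response element (TGACGTCA) in 1.79% and the E-box (CACGTG) in 7.15%, and the E-box was also in a Hspd1 window. The NRF1 site (GCGCN followed by TGCGC), in 4.6% of windows, was found in windows of Hspd1, Dnaja3 and Oma1. The amino acid response element (TGATGNAAT), in 0.965%, and the ETS core (CCGGAAGT), in 3.89%, were in no member window. These are matches of letters only.

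Counts were raw reads per gene, with 10514496 to 13414293 per library in wild type cells and 6924973 to 30473040 in the shRNA experiment. The summed level of 9 macrophage markers was 15175 to 20164 CPM in wild type libraries. In the shRNA experiment it was 16594 to 22200 CPM in control hairpin libraries and 9498 to 11028 CPM in Etv1 hairpin libraries, with no overlap. Among markers of other cells, the dendritic cell, lymphocyte, mast cell and erythroid sums each reached at most 5.75 CPM. The neutrophil sum was 212 to 342 CPM in wild type and 0 to 2.46 CPM in shRNA libraries. The summed level of 7 stromal and endothelial markers, of which 3 passed the filter on low counts, moved with the stimulus in wild type cells. It was 3.88 to 5.11 CPM with no stimulus, 65.9 to 81.8 with IL-4, 159 to 213 with IL-4 and PGE2, and 57.6 to 66.4 with IL-4 and valinomycin. Under the control hairpin their sums were 1.32 to 3.18 CPM with no stimulus, 10.5 to 21.9 CPM with IL-4 and 39 to 56.2 CPM with IL-4 and PGE2. Under the Etv1 hairpin the sums were 0.537 to 1.84, 7.27 to 9.67 and 21.1 to 23.5 CPM in the same order. With IL-4 and the Etv1 hairpin, Col1a1, Col1a2, Col3a1 and Pdgfra were at 0 CPM, so the sum there came from the remaining markers. The part of these 7 markers in the IL-4 and PGE2 results of both experiments was not tested. In bulk RNA, fewer cells of a type and less RNA per cell cannot be told apart.

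Hspd1, the chaperonin HSP60, and Hspe1, its co-chaperonin, rose with IL-4 and fell below the unstimulated level when PGE2 was also present. In wild type cells Hspd1 was at 146, 151 and 164 CPM with no stimulus, 235, 211 and 231 CPM with IL-4, and 88.55, 85.1 and 77.7 CPM with IL-4 and PGE2. The 3 groups did not overlap. The IL-4 change was 0.56 ± 0.07 (log2 fold change ± SE, 3 against 3 libraries; adjusted p = 5.07e-07, edgeR), and the PGE2 change on IL-4 was -1.43 ± 0.07 (adjusted p = 3.27e-13), a level 2.69-fold lower. Because these comparisons share the IL-4 libraries, IL-4 with PGE2 was also set directly against no stimulus, where Hspd1 was 1.83-fold lower (-0.87 ± 0.07, adjusted p = 6.88e-10).

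Hspe1 was at 48.2, 50.3 and 54.4 CPM with no stimulus, 71.9, 65.2 and 68.4 CPM with IL-4, and 34.3, 32.8 and 30.4 CPM with IL-4 and PGE2, again with no overlap. It rose by 0.42 ± 0.07 with IL-4 (adjusted p = 1.29e-05) and changed by -1.07 ± 0.07 with PGE2 (adjusted p = 6.25e-12). Per kilobase of exon, Hspd1 stood 1.84 ± 0.0403 times as high as Hspe1 with IL-4 and 1.44 ± 0.0104 times with PGE2 (SD, n = 3). The ratio was also lower with PGE2 under the control hairpin, at 2.23 ± 0.101 and 1.79 ± 0.205, and under the Etv1 hairpin, at 2.32 ± 0.0895 and 1.86 ± 0.171. Counting limits apply to the pair: their annotated spans overlap by 112 bases on opposite strands, which strand was counted is not known here, and 2 annotated Hspd1 copies held reads equal to 5.88% of the Hspd1 counts. The copy Hspd1-ps3 changed by -1.49 ± 0.10 with PGE2.

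With valinomycin neither gene was called. Hspd1 was at 243, 216 and 203 CPM, overlapping the IL-4 libraries, and its change was -0.03 with a 95% interval of -0.17 to 0.10 (adjusted p = 0.727). Hspe1 changed by -0.03, with an interval of -0.17 to 0.10 (adjusted p = 0.746). The direct comparison of PGE2 with valinomycin, both on IL-4, gave -1.39 ± 0.07 for Hspd1 and -1.04 ± 0.07 for Hspe1 (adjusted p = 3.73e-13 and 8.25e-12). PGE2 and valinomycin were given at different doses, so the values compare the treatments as used.

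**Figure D1:**
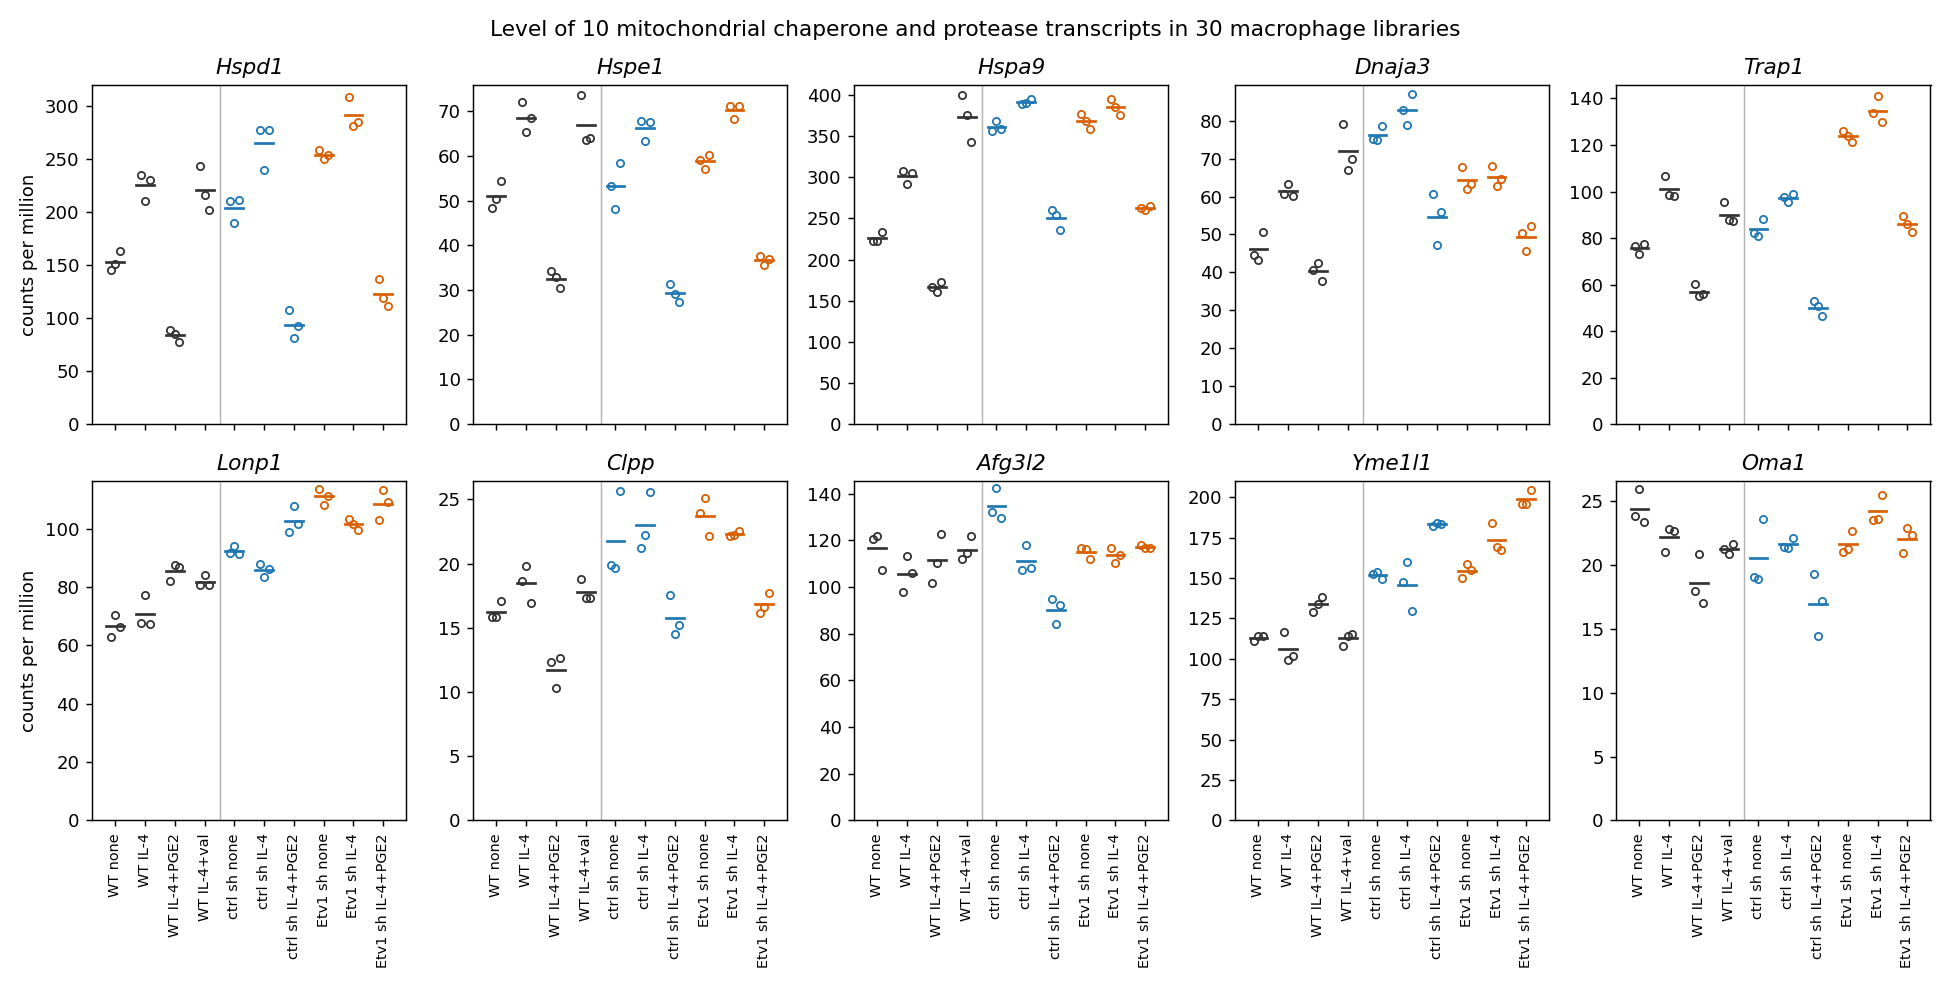
Each panel shows 1 gene, with CPM on the vertical axis starting at 0 and the 10 groups along the horizontal axis; circles are the 3 libraries of a group and the line is their mean. Hspd1, Hspe1, Hspa9, Dnaja3, Trap1 and Clpp are lower with PGE2 than with IL-4 in all 3 kinds of cells, while Lonp1 and Yme1l1 have higher means.

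Hspa9, the mitochondrial HSP70 that also drives import through the inner membrane, moved in opposite directions with the 2 agents. Wild type levels were 222, 222 and 234 CPM with no stimulus, 308, 292 and 305 CPM with IL-4, 166.5, 160.4 and 172 CPM with PGE2, and 400.3, 376 and 342.5 CPM with valinomycin. All valinomycin libraries were above all IL-4 libraries, and all PGE2 libraries were below every other group. The PGE2 change on IL-4 was -0.86 ± 0.05 (adjusted p = 1.34e-12) and the valinomycin change was 0.31 ± 0.05 (adjusted p = 4.47e-05). Between the agents the difference was -1.16 ± 0.05, a level 2.24-fold lower with PGE2 (adjusted p = 3.36e-15).

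Dnaja3, a J-domain co-chaperone of mitochondrial HSP70, moved in the same directions. It was at 44.5, 43.2 and 50.8 CPM with no stimulus, 60.8, 63.3 and 60.02 CPM with IL-4, 40.6, 42.6 and 37.8 CPM with PGE2, and 79.0, 67.0 and 69.8 CPM with valinomycin. It fell with PGE2 (-0.60 ± 0.07, adjusted p = 1.42e-07) and rose with valinomycin (0.23 ± 0.07, adjusted p = 0.00908). Without valinomycin replicate 1 the latter was 0.17 and was not called (adjusted p = 0.0543). The Dnaja3 span overlaps those of Coro7 and Vasn, which makes its counts uncertain. Grpel1, the nucleotide exchange factor of mitochondrial HSP70, had a PGE2 change of -0.48 ± 0.06 (adjusted p = 2.42e-07). Per kilobase the ratio of Hspa9 to Grpel1 was 3.42 ± 0.301 with IL-4, 2.62 ± 0.14 with PGE2 and 4.47 ± 0.19 with valinomycin (SD, n = 3), and these 3 groups did not overlap.

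Trap1, the mitochondrial HSP90 homologue, went from 76.6, 73.0 and 77.7 CPM with no stimulus to 106.5, 98.35 and 98.0 CPM with IL-4 and 60.2, 55.1 and 55.8 CPM with PGE2. The PGE2 change on IL-4 was -0.82 ± 0.06 (adjusted p = 1.15e-11), with no overlap of the groups. With valinomycin it was at 95.4, 87.6 and 87.3 CPM, a change of -0.16 ± 0.05 (adjusted p = 0.0194). That call did not hold with DESeq2 (-0.15, adjusted p = 0.0612), with no filter on low counts (adjusted p = 0.0786), or with only the groups of the contrast (adjusted p = 0.0629). Nor did it hold without IL-4 replicate 1 (-0.11, adjusted p = 0.131) or without valinomycin replicate 2 or 3 (adjusted p = 0.109 and 0.1). The Trap1 span overlaps that of Dnase1.

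Among the matrix proteases, Lonp1 and Clpp went in opposite directions with PGE2. Lonp1, an ATP-dependent protease of the matrix, was at 67.8, 77.2 and 67.4 CPM with IL-4, 82.0, 87.4 and 87.0 CPM with PGE2, and 80.6, 83.9 and 80.7 CPM with valinomycin. Both agents raised it, by 0.27 ± 0.06 (adjusted p = 0.000355) and 0.21 ± 0.06 (adjusted p = 0.00705), and the agents differed by 0.06 with an interval of -0.06 to 0.18. Clpp, the peptidase of the ClpXP complex, was at 18.6, 19.8 and 16.9 CPM with IL-4 and 12.3, 10.3 and 12.6 CPM with PGE2 (-0.65 ± 0.10, adjusted p = 4.74e-06). Its valinomycin change was -0.05, with an interval of -0.24 to 0.14. Clpx, which unfolds substrates for CLPP, rose with PGE2 (0.21 ± 0.07, adjusted p = 0.0105) and with valinomycin (0.26 ± 0.07, adjusted p = 0.00382). Per kilobase, the Clpx to Clpp ratio was 0.572 ± 0.0716 with IL-4 and 1.05 ± 0.123 with PGE2 (SD, n = 3), with no overlap.

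Among the inner membrane proteases, only Yme1l1 rose with PGE2 in wild type cells. Yme1l1, which degrades proteins on the intermembrane space side and also cleaves OPA1, was at 116.5, 99.1 and 102 CPM with IL-4 and 129, 134 and 138.5 CPM with PGE2, a rise of 0.34 ± 0.05 (adjusted p = 1.17e-05) with no overlap. Afg3l2, a subunit of the m-AAA protease, overlapped between IL-4 (97.7, 113 and 106 CPM) and PGE2 (102, 110.3 and 122.5 CPM), and its change was 0.07 with an interval of -0.07 to 0.22. Its partner subunit Spg7 had a PGE2 change of 0.13 ± 0.06 (adjusted p = 0.0814). Oma1 was at 20.99, 22.8 and 22.6 CPM with IL-4 and 17.9, 20.8 and 17.0 CPM with PGE2 (-0.25 ± 0.09, adjusted p = 0.0142), and the groups were apart by a narrow margin. That call was lost without PGE2 replicate 1 (-0.22, adjusted p = 0.0582) or replicate 3 (-0.20, adjusted p = 0.0757). Under valinomycin, which dissipates the membrane potential by carrying potassium, Oma1 transcripts changed by -0.06 with an interval of -0.23 to 0.11. OMA1 is regulated as a protein, which RNA counts do not measure.

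**Figure D2:**
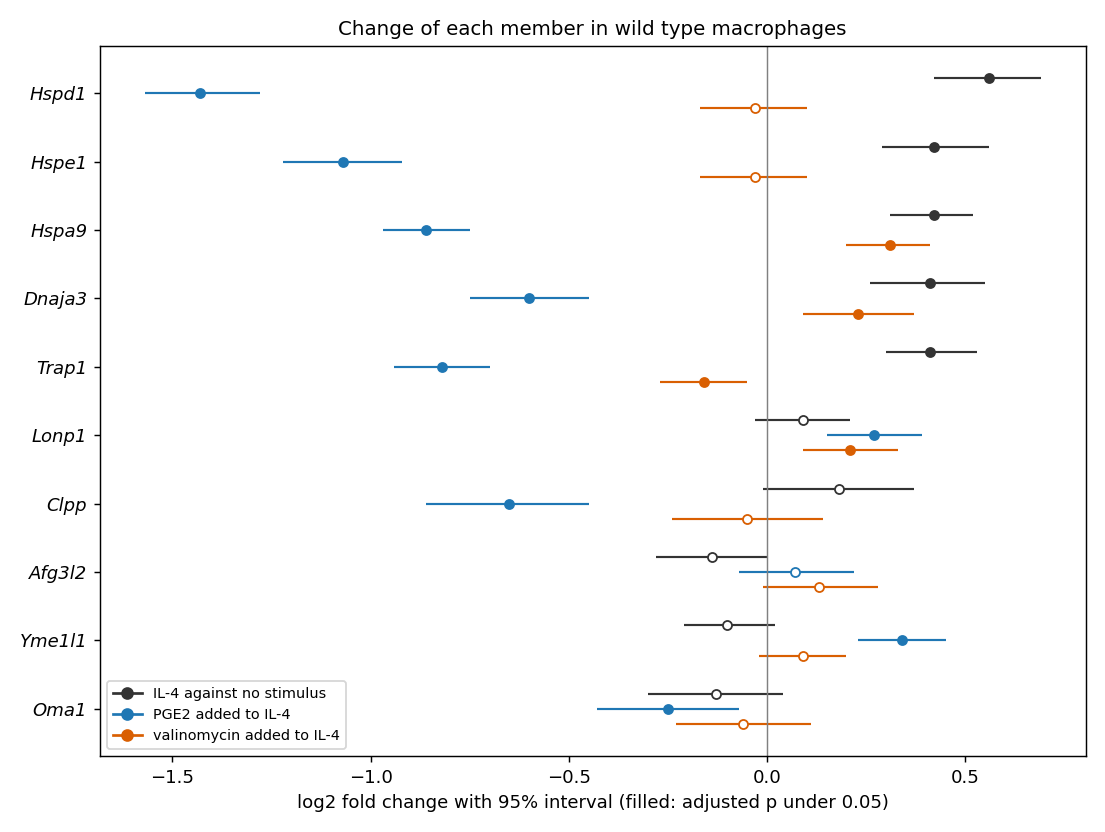
The horizontal axis is the log2 fold change in wild type cells with its 95% interval; black is IL-4 against no stimulus, blue is PGE2 added to IL-4 and orange is valinomycin added to IL-4, with filled points for adjusted p under 0.05. Hspd1 reaches -1.43 with PGE2 and lies at -0.03 with valinomycin.

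Counted together in wild type cells, 5 of 10 members rose with IL-4 and 0 fell, among 12824 genes tested (24.0% of all genes higher and 22.4% lower, 46.4% in all). Beside Hspd1 and Hspe1, these were Hspa9 (0.42 ± 0.05), Dnaja3 (0.41 ± 0.07) and Trap1 (0.41 ± 0.05). Afg3l2 (-0.14, adjusted p = 0.102, edgeR) was called lower with no filter on low counts (adjusted p = 0.0228) and with only the groups of the contrast (0.0458). Leaving out unstimulated replicate 3 or IL-4 replicate 2 also called it lower (adjusted p = 0.0294 and 0.0388). Yme1l1 was called lower without IL-4 replicate 1 (-0.17, adjusted p = 0.00777). With PGE2 on IL-4, 2 rose and 7 fell (29.9% of all genes higher and 29.5% lower, 59.4% in all). The median change was -0.63 over the members and 0.01 over all genes. With valinomycin on IL-4, 3 rose and 1 fell (19.4% of all genes higher and 18.9% lower, 38.4% in all). Over both directions together this share was near the background. Between PGE2 and valinomycin 1 member was higher and 6 were lower with PGE2 (31.7% of all genes higher and 31.5% lower, 63.2% in all). Against no stimulus, IL-4 with PGE2 had 2 members higher and 7 lower (30.1% of all genes higher and 28.6% lower, 58.7% in all), and IL-4 with valinomycin had 6 higher and 1 lower (26.9% of all genes higher and 25.8% lower, 52.7% in all).

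These direct comparisons with no stimulus were chosen after the data were seen. In them Dnaja3 was lower with PGE2 (-0.20 ± 0.07, adjusted p = 0.0262), but was not called without unstimulated replicate 3 (-0.12, adjusted p = 0.212) or PGE2 replicate 3 (-0.16, adjusted p = 0.112). Hspa9 and Dnaja3 were higher with valinomycin, by 0.72 ± 0.05 and 0.64 ± 0.07. Oma1 was lower with valinomycin (-0.20, adjusted p = 0.0496), a call that was lost whichever of the 6 libraries was left out and with DESeq2 (adjusted p = 0.127).

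Per kilobase of exon, Hspd1 was the most abundant member without stimulus at 58.1 ± 3.48 CPM, followed by Hspa9 at 52.5 ± 1.55, Hspe1 at 34.6 ± 2.115 and Trap1 at 29.4 ± 0.948 (SD, n = 3). Lonp1, Yme1l1 and Clpp followed at 15.2 ± 0.831, 14.1 ± 0.212 and 13.3 ± 0.593. Afg3l2, Dnaja3 and Oma1 came last at 11.8 ± 0.825, 11.8 ± 1.03 and 11.4 ± 0.653, closer to each other than their SDs. With IL-4 and PGE2 the leading gene was Hspa9 at 38.6 ± 1.37, above Hspd1 at 31.7 ± 2.09. Trap1, Hspe1 and Lonp1 then lay at 22.2 ± 1.08, 22.1 ± 1.34 and 19.5 ± 0.691, of which Trap1 and Hspe1 did not differ beyond their spread.

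Genes around the members are described by counts, from lists chosen with earlier results of these data known. With PGE2 on IL-4 in wild type cells, 29.9% of all genes rose and 29.5% fell. Of 18 other mitochondrial chaperones and cofactors, in wild type cells under PGE2 1 rose and 14 fell (median -0.40, against 0.01 over all genes). The fall included Phb2, a prohibitin scaffold of the inner membrane (from 144 to 71.8 CPM, adjusted p = 2.8e-14), and Ahsa1, an HSP90 activator that acts mainly in the cytosol (from 182 to 91.2 CPM). Of 26 tested import genes, 1 rose and 18 fell (median -0.43), among them Tomm40, the outer membrane channel (-0.91 ± 0.07, adjusted p = 3.56e-11), and Chchd4, which oxidises imported proteins of the intermembrane space (-1.14 ± 0.09). Of 16 other proteases, 1 rose and 4 fell, both below the shares over all genes. Lactb rose by 0.55 ± 0.07, and Htra2, an intermembrane space serine protease, changed by -1.17 ± 0.07 (adjusted p = 1.78e-12).

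Outside mitochondria, the cytosolic list mostly fell with PGE2 in wild type cells, as the mitochondrial chaperone and import lists did. The ER list mostly rose. Of 20 cytosolic heat shock chaperones, 3 rose and 13 fell (median -0.46), with the chaperonin subunit Tcp1 at -0.74 ± 0.05 and Hsp90ab1 at -0.67 ± 0.04, while Hspa4l rose by 0.86 ± 0.06. Of 17 genes in the ER chaperone list, 11 rose and 0 fell (median 0.22), including Dnajc3 at 0.51 ± 0.06 and Xbp1, a transcription factor of the ER stress response, at 0.40 ± 0.05. With the control hairpin the same PGE2 comparison had 5 ER genes higher and 2 lower (median 0.03). With the Etv1 hairpin it had 9 higher and 0 lower (median 0.22), and the replicate block raised that total of 9 to 14, 13 higher and 1 lower. Cytosolic chaperones had 6 higher and 11 lower with the control hairpin and 5 higher and 11 lower with the Etv1 hairpin. Import genes had 1 higher and 16 lower, and 2 higher and 14 lower, respectively. Over all genes, 29.3% were higher and 30.1% lower with the control hairpin, and 24.6% higher and 22.8% lower with the Etv1 hairpin.

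The stress response list had more calls with valinomycin. Over all genes, 19.4% rose and 18.9% fell with valinomycin, and 29.9% rose and 29.5% fell with PGE2. Of 13 tested genes of the OMA1-DELE1-HRI arm and its proposed factors, 9 rose and 0 fell with valinomycin (median 1.37, against -0.03 over all genes), and 3 rose and 3 fell with PGE2 (median -0.12). Dele1 itself changed by -0.015 with valinomycin and was not called (adjusted p = 0.891, edgeR). Whether this arm was active, or what else raised the listed genes, was not tested. Atf4, the factor through which the arm acts, was at 180.5 CPM with IL-4 and 536 CPM with valinomycin (1.57 ± 0.05, adjusted p = 8.03e-16). Ddit3, which encodes CHOP, went from 24.6 to 141 CPM (2.52 ± 0.09, adjusted p = 1.34e-12), and Chac1, an ATF4 target, from 0.783 to 29.1 CPM (5.19 ± 0.21). Atf4 was lower with PGE2 than with valinomycin (-1.69 ± 0.06, adjusted p = 1.07e-17). In the same valinomycin libraries 0 import genes rose and 11 fell, and Hspd1 and Hspe1 were not called.

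Some list counts with valinomycin rested on single libraries. Over all genes, 19.4% rose and 18.9% fell. In the ER list 1 rose and 8 fell, and its total of 9 became 5 without IL-4 replicate 1, 5 without valinomycin replicate 2 and 3 without replicate 3. In the cytosolic list 4 rose and 10 fell, a total of 14 that became 9 without valinomycin replicate 3. There the heat-inducible Hspa1a rose by 2.92 ± 0.26 and the constitutive Hspa8 changed by -0.46 ± 0.06. Of the 16 other mitochondrial proteases 2 rose and 0 fell, both below the shares over all genes. Without valinomycin replicate 1 the total was 6, of which 2 rose and 4 fell. Of the other mitochondrial chaperones 3 rose and 6 fell, with Grpel2, a second exchange factor of mitochondrial HSP70, at 0.39 ± 0.07.

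**Figure D3:**
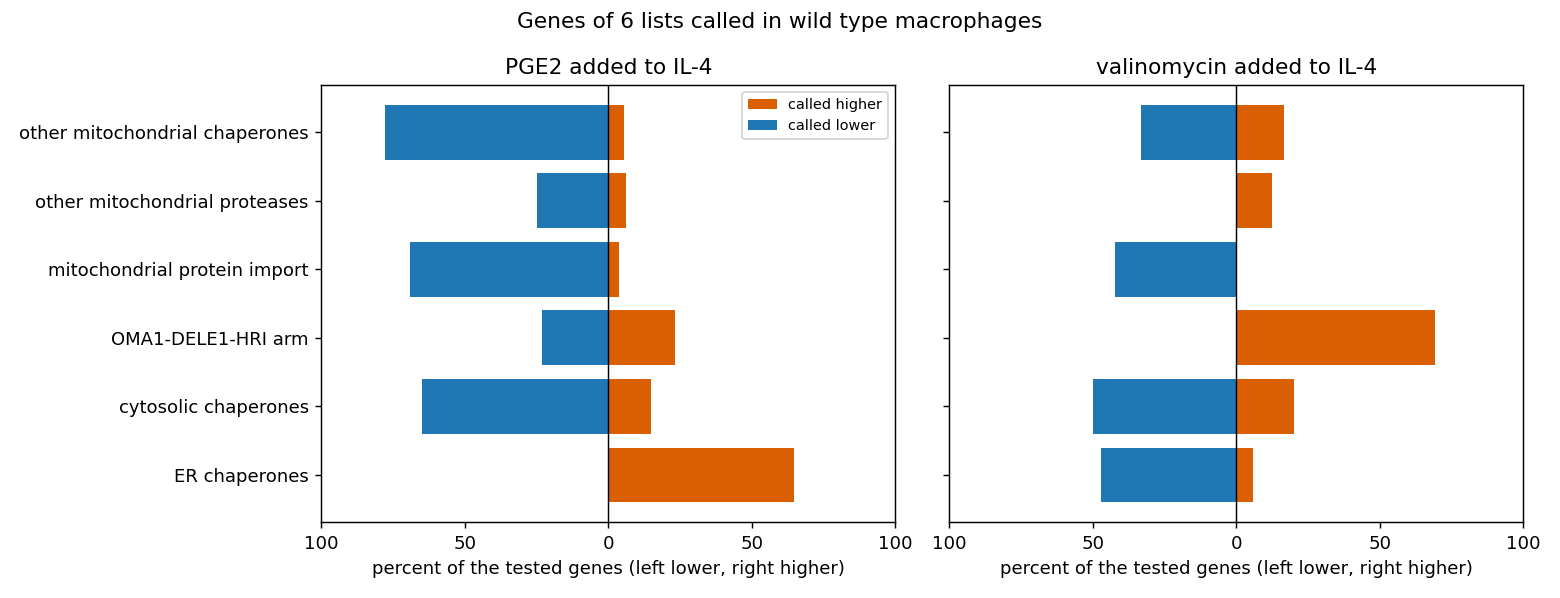
Bars give the percent of the tested genes of each of 6 lists that were called lower (left, blue) or higher (right, orange) in wild type cells, for PGE2 and for valinomycin added to IL-4. The stress response list has 9 of 13 genes higher with valinomycin, against 19.4% of all genes. The ER list has 11 of 17 higher with PGE2, against 29.9% of all genes.

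In the shRNA experiment, the targeted gene was checked in every library. Etv1 was at 10.9, 10.3 and 10.5 CPM with the control hairpin and no stimulus and at 4.84, 2.51 and 2.96 CPM with the Etv1 hairpin. With IL-4 it was at 15.3, 11.5 and 14.9 against 6.0, 4.97 and 5.02 CPM, and with IL-4 and PGE2 at 29.1, 21.8 and 33.1 against 9.07, 7.71 and 9.85 CPM. The hairpin groups did not overlap in any condition. PGE2 on IL-4 raised Etv1 by 1.14 ± 0.09 in wild type cells, 1.02 ± 0.16 in control hairpin cells and 0.75 ± 0.20 in Etv1 hairpin cells. The control hairpin libraries numbered 2 stood apart from their replicates in all 3 conditions, so results were also computed without them.

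With the control hairpin, PGE2 changed all 10 members. Of these 2 rose and 8 fell, among 12382 genes tested (29.3% of all genes higher and 30.1% lower, 59.4% in all). Hspd1 was at 277, 239.5 and 278 CPM with IL-4 and 108, 81.2 and 92.9 CPM with PGE2 (-1.50 ± 0.09, adjusted p = 7.85e-11). Hspe1 was at 67.8, 63.2 and 67.6 CPM and 31.4, 29.2 and 27.4 CPM (-1.19 ± 0.07). Trap1 changed by -0.96 ± 0.06, Hspa9 by -0.65 ± 0.05, Dnaja3 by -0.60 ± 0.07 and Clpp by -0.55 ± 0.11. Lonp1 and Yme1l1 rose by 0.26 ± 0.05 and 0.33 ± 0.06. Afg3l2, not called in wild type cells, changed by -0.30 ± 0.06 (adjusted p = 0.000113) and Oma1 by -0.35 ± 0.10 (adjusted p = 0.00552). All 10 were also called with the replicate number as a block and without the libraries numbered 2.

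With the Etv1 hairpin, PGE2 raised 1 member and lowered 6 (24.6% of all genes higher and 22.8% lower, 47.5% in all). Hspd1 was at 309, 281.5 and 285 CPM with IL-4 and 137, 119 and 112 CPM with PGE2, a change of -1.25 ± 0.09 (adjusted p = 2.36e-09), and Hspe1 changed by -0.93 ± 0.07. Hspa9, Dnaja3, Trap1 and Clpp changed by -0.55 ± 0.05, -0.40 ± 0.08, -0.65 ± 0.05 and -0.41 ± 0.11. Yme1l1 rose by 0.20 ± 0.06 (adjusted p = 0.0114), and without Etv1 hairpin IL-4 replicate 3 it was at 0.17 (adjusted p = 0.0526). Lonp1 (0.09), Afg3l2 (0.04) and Oma1 (-0.14) were not called, with intervals of -0.01 to 0.20, -0.07 to 0.16 and -0.34 to 0.07.

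**Figure D4:**
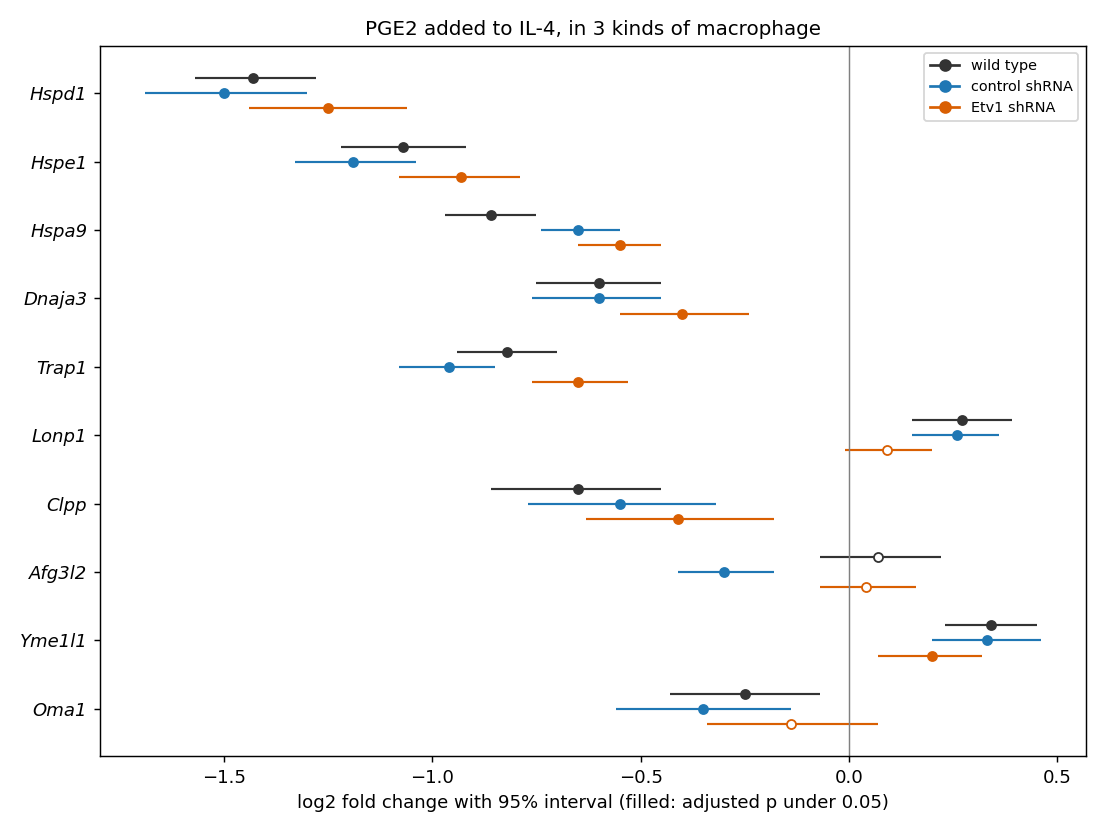
The horizontal axis is the log2 fold change for PGE2 added to IL-4 with its 95% interval, in wild type (black), control hairpin (blue) and Etv1 hairpin cells (orange); filled points have adjusted p under 0.05. Hspd1, Hspe1, Hspa9, Dnaja3, Trap1 and Clpp are lower in all 3, and Afg3l2 is called with the control hairpin at -0.30.

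The difference between the hairpins in the PGE2 change was tested directly. It was called for 2 members (6.03% of all genes higher and 5.58% lower, 11.6% in all): Trap1, at 0.32 ± 0.08 (adjusted p = 0.0109), and Afg3l2, at 0.34 ± 0.08 (adjusted p = 0.00615). For both, the PGE2 change with the Etv1 hairpin minus that with the control hairpin was positive. Trap1 fell with PGE2 in wild type cells and with both hairpins. Afg3l2 fell with the control hairpin only, and was not called in wild type cells or with the Etv1 hairpin. Without control hairpin PGE2 replicate 3, the Trap1 difference was 0.25 and was not called (adjusted p = 0.0615). For Hspd1 the difference was 0.25 with an interval of -0.02 to 0.51, and for Hspe1 it was 0.25 with an interval of 0.05 to 0.46 (adjusted p = 0.234 and 0.103).

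IL-4 against no stimulus gave fewer member calls than in wild type cells, where 46.4% of all genes were called. Calls over all genes were fewer too, and the member shares, taken over both directions together, were near theirs. The difference was not tested. With the control hairpin 3 members rose and 1 fell (17.2% of all genes higher and 17.1% lower, 34.3% in all). Hspd1 rose by 0.38 ± 0.09, Hspe1 by 0.32 ± 0.07 and Trap1 by 0.22 ± 0.05, and Afg3l2 changed by -0.28 ± 0.05. Hspa9 (0.12, adjusted p = 0.0563) was called with the replicate block (adjusted p = 0.0376), which pairs same-numbered libraries. With the Etv1 hairpin only Hspe1 was called (0.26 ± 0.07, adjusted p = 0.00925), against 10.9% of all genes higher and 7.16% lower, 18% in all. The replicate block there added Hspd1 (0.20, adjusted p = 0.022) and Yme1l1 (0.17, adjusted p = 0.0433), for 3 in all. Between the hairpins the IL-4 change differed for 0 members by edgeR (2.71% of all genes higher and 1.81% lower, 4.51% in all). The nearest was Afg3l2 at 0.26 ± 0.08 (adjusted p = 0.0626), which DESeq2 called (adjusted p = 0.0499) as its only member. It was also called by edgeR with the replicate block (0.26, adjusted p = 0.039), without control IL-4 replicate 2 (adjusted p = 0.0338) and without the 3 control hairpin libraries numbered 2 (adjusted p = 0.0256). The last 2 of these settings also called Yme1l1 (adjusted p = 0.0439 and 0.0453). At an unadjusted p under 0.05 there were 2 members, Afg3l2 and Yme1l1 (0.23).

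Set directly against no stimulus in the same cells, IL-4 with PGE2 had 2 members higher and 8 lower with the control hairpin (30.3% of all genes higher and 31.2% lower, 61.5% in all) and 1 higher and 6 lower with the Etv1 hairpin (28.0% of all genes higher and 23.1% lower, 51.0% in all). Hspd1 was 2.17-fold and 2.07-fold lower, respectively. With the control hairpin Lonp1 (0.15, adjusted p = 0.0101) lost its call with no filter on low counts (adjusted p = 0.115) and with only the groups of the contrast (adjusted p = 0.0725). Oma1 (-0.26, adjusted p = 0.0255) lost its call with DESeq2 (adjusted p = 0.0566) and without the libraries numbered 2 (-0.22, adjusted p = 0.0859). It also lost it without unstimulated replicate 3 (-0.16, adjusted p = 0.155) or PGE2 replicate 2 or 3 (-0.17 and -0.27, adjusted p = 0.145 and 0.0646).

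Compared between hairpins, Trap1 was higher with Etv1 knockdown in each condition. With no stimulus it was at 126, 124 and 121 CPM with the Etv1 hairpin against 82.1, 80.9 and 88.3 CPM with the control (0.56 ± 0.05, adjusted p = 6.3e-08). With IL-4 it was at 134, 141 and 129.7 against 97.6, 95.4 and 99.0 CPM (0.47 ± 0.05), and with IL-4 and PGE2 at 89.4, 86.2 and 82.6 against 52.9, 50.85 and 46.7 CPM (0.79 ± 0.06, adjusted p = 9.72e-10). The groups did not overlap. Dnaja3 was lower with no stimulus (-0.25 ± 0.07, adjusted p = 0.0087) and with IL-4 (-0.35 ± 0.07, adjusted p = 0.000601). With IL-4 and PGE2 Dnaja3 was at -0.14 (adjusted p = 0.119), and it was called without control replicate 2 (-0.25, adjusted p = 0.00366). Lonp1 was higher with no stimulus (0.27 ± 0.05) and with IL-4 (0.24 ± 0.05).

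Afg3l2 lay lower with the Etv1 hairpin with no stimulus (-0.23 ± 0.05, adjusted p = 0.00153) and higher with IL-4 and PGE2 (0.37 ± 0.06, adjusted p = 1.08e-05). With the control hairpin it was at 132, 142 and 129.6 CPM with no stimulus, 107.5, 118 and 108 CPM with IL-4, and 94.8, 84.0 and 92.2 CPM with IL-4 and PGE2. With the Etv1 hairpin it was at 117, 116 and 112, then 117, 110.4 and 114, then 118, 117 and 117 CPM in the same order, with the IL-4 libraries overlapping both other groups. Hspd1 was higher with no stimulus (0.32 ± 0.09) and with IL-4 and PGE2 (0.38 ± 0.09), and Hspe1 and Oma1 were higher with IL-4 and PGE2 (0.34 ± 0.07 and 0.37 ± 0.10). Yme1l1 was higher with IL-4 (0.25 ± 0.06). With no stimulus, leaving out control replicate 3 added Hspe1 (0.21, adjusted p = 0.0132) and Clpp (0.26, adjusted p = 0.03).

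By count, the Etv1 hairpin had 3 members higher and 2 lower with no stimulus (24.9% of all genes higher and 26.8% lower, 51.7% in all), 3 higher and 1 lower with IL-4 (25.4% of all genes higher and 25.6% lower, 51.0% in all), and 5 higher and 0 lower with IL-4 and PGE2 (27.6% of all genes higher and 26.7% lower, 54.3% in all). Taken over both directions together, these shares were near the background. With IL-4 and PGE2 all 5 calls were higher, against 27.6% of all genes higher and 26.7% lower. All Etv1 hairpin libraries also had the lower macrophage marker sums given above, whose part in these differences was not tested.

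**Figure D5:**
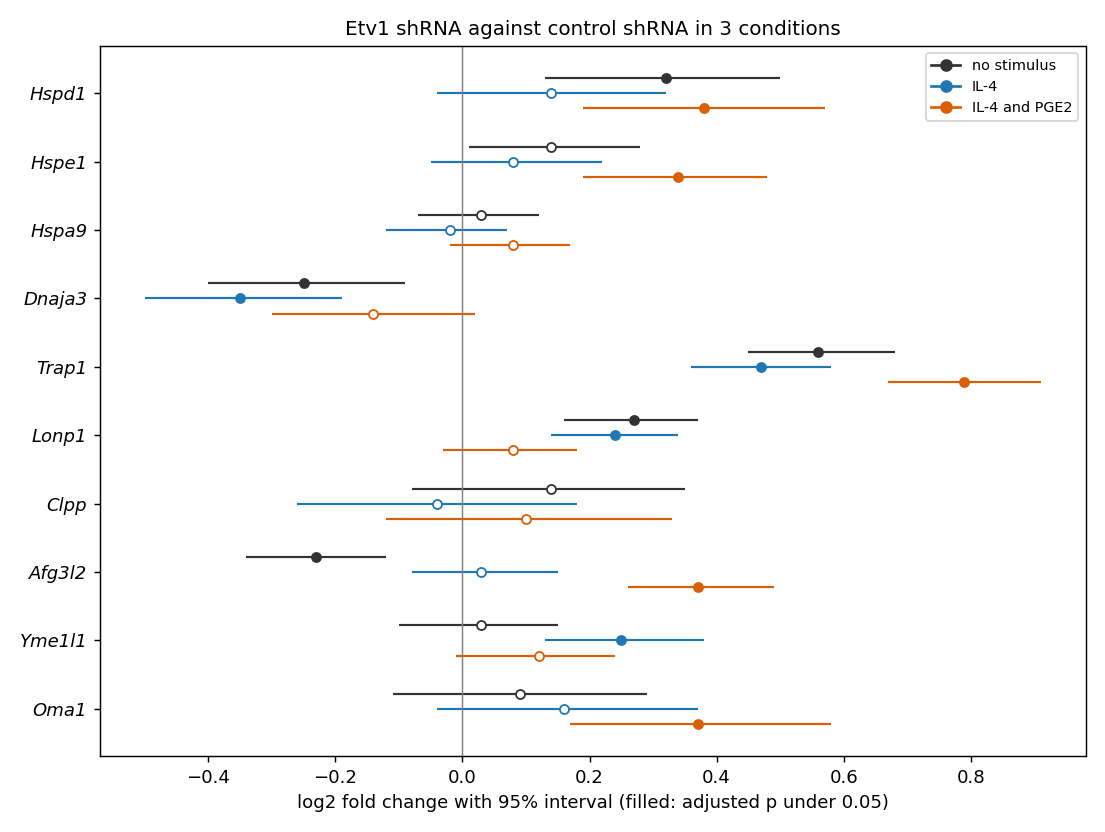
The horizontal axis is the log2 fold change of the Etv1 hairpin against the control hairpin with its 95% interval, with no stimulus (black), IL-4 (blue) and IL-4 with PGE2 (orange); filled points have adjusted p under 0.05. Trap1 is to the right of 0 in all 3 conditions, and Afg3l2 lies at -0.23 with no stimulus and 0.37 with IL-4 and PGE2.

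The surrounding lists were compared between the hairpins in the same 3 conditions. Over all genes, 24.9% were higher and 26.8% lower with no stimulus, 25.4% and 25.6% with IL-4, and 27.6% and 26.7% with IL-4 and PGE2. In the ER list 13 of 17 genes were higher and 1 lower with no stimulus (median 0.44), and 11 higher and 0 lower with IL-4 (median 0.36). In the stress response list 2 of 13 were higher and 7 lower with no stimulus (median -0.17), and 2 higher and 9 lower with IL-4 (median -0.29). Under IL-4 and PGE2 the Etv1 hairpin had 15 of 17 ER genes higher and 0 lower (median 0.62), and 2 of 13 stress response genes higher and 9 lower (median -0.87). In that condition Atf4 was at 194 against 246.5 CPM (-0.35 ± 0.05, adjusted p = 5.68e-06) and Ddit3 at 17.1 against 39.3 CPM (-1.21 ± 0.08, adjusted p = 4.61e-10). Of 26 import genes 11 were higher and 0 lower with no stimulus (7 called without Etv1 hairpin replicate 2), and 5 higher and 2 lower with IL-4 (4 called without control replicate 1). Under IL-4 and PGE2 13 were higher and 0 lower, a total that was 8 without Etv1 hairpin replicate 3 and 8 without control replicate 3 of that condition, the latter 7 higher and 1 lower. Dele1, the OMA1 substrate, differed there by 0.56 ± 0.08 (adjusted p = 6.65e-06). The macrophage marker sums given above differed between the same libraries.

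Over all 30 libraries, the gene whose pattern lay nearest to that of Hspd1 was C1qbp. Its root-mean-square difference was 0.102 in centred log2 CPM, where Hspd1 itself varied by 0.604. Atad3a (0.103), Nop58 (0.109), Rrp9 (0.110) and Smyd5 (0.117) followed among 11019 genes. Hspe1 ranked 26 (0.171). Lonp1 varied by 0.144, and genes near it in pattern were Rundc1 (0.080), Rxrb (0.082), Kdm4a (0.084) and Faf2 (0.085). These are descriptions over libraries that share conditions.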

How the data were processed

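Messenger RNA libraries were sequenced with a stranded kit, per the labels, and what the authors deposited is a table of raw counts by Ensembl gene for every one of the 30 libraries. Per the submitters' processing notes, STAR, featureCounts and GRCm38 were used, with no versions stated; no source used here gives the strand setting, and DESeq2 and deepTools, also named there, gave no file used here. Symbols and coordinates came from GENCODE M21: 42548 of 43629 identifiers (97.52%) matched, and unmatched ones held 0.153% of counts.

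Each experiment was fitted separately with edgeR 4.0.16 (R 4.3.3), with all its groups in 1 model, TMM normalization, filterByExpr and the robust quasi-likelihood test, and p-values were adjusted by Benjamini-Hochberg over all genes tested (12824 and 12382). A gene was called at adjusted p under 0.05. CPM used TMM-scaled library sizes, and levels per kilobase used the union of exons. On simulated data, the test recovered 75% and 90% of genes changed by 0.5 and 1 (log2) in the wild type PGE2 comparison, and 57% and 83% in the control hairpin one. Only 100 genes of each size were changed there, far fewer than the 59.4% of genes called in the real comparisons. The recovery in the real comparisons can therefore differ. Likeness of pattern used log2(CPM + 0.5) centred within each experiment. The 5 nearest genes were taken for Hspd1 and for Lonp1, of which 1 is not reported here. The members, partners (Clpx, Grpel1, Spg7, Opa1, Dele1, Atf4, Atf5 and Ddit3) and lists were chosen with earlier results of these data known; from each list, up to 3 risen and 3 fallen called genes with the smallest adjusted p could be named.

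No replicates agreed within sampling noise (lowest chi-square per degree of freedom 1.235). The control hairpin libraries numbered 2 differed from their replicates by 12.1 to 20.3, against 2.8 to 4.6 for the other control pairs. Of 6 comparisons within a hairpin, same-numbered libraries deviated together with every correlation over 0.1 in 5 (0.106 to 0.49). In the other, IL-4 with PGE2 against no stimulus with the Etv1 hairpin, the correlations were 0.096, 0.262 and 0.232. Those of PGE2 on IL-4 with that hairpin were 0.106, 0.293 and 0.198, so this cutoff does not separate them. The replicate block gave same-numbered libraries of both hairpins a shared term. The main values all came from fits without a replicate block, so they ignored this pairing, which entered only as an alternative. Alternatives were DESeq2 1.42.0, its size factors in edgeR, no or a stricter filter (1 CPM in 6 libraries), only the groups of a contrast, the replicate block and leaving out each library. Leaving out the control libraries numbered 2, and the 4 comparisons of IL-4 with PGE2 or valinomycin against no stimulus, were added after seeing the data.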

Additional observations from a re-analysis of the deposited data

Results flagged for a closer look

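The change with PGE2 on IL-4 differed between the Etv1 and control hairpins, by a test of the difference itself, for Trap1 (0.32, Etv1 minus control, log2), Afg3l2 (0.34) and the partner gene Ddit3 (0.66, adjusted p = 0.00105, edgeR). Ddit3, which encodes the stress factor CHOP, rose with PGE2 with the Etv1 hairpin (0.38 ± 0.09) and fell with the control hairpin (-0.28 ± 0.08). The Trap1 difference was not called without control hairpin PGE2 replicate 3 (0.25, adjusted p = 0.0615). The fall of Afg3l2 with PGE2 was called with the control hairpin only, and not in wild type cells.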

How the results depend on the processing

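Of 170 member results, 96 were called, and of their 2270 values under alternatives 2181 kept direction and side of the threshold, 31 were newly called, 31 lost a call and 27 changed sign. The count of 1 member called for IL-4 with the Etv1 hairpin became 3 with the replicate block, 4 with only the groups of the contrast and 4 without the control libraries numbered 2. The count of 2 for the hairpin difference of the PGE2 changes ranged from 1 to 2 when single libraries were left out. The count of 0 for the hairpin difference of the IL-4 changes became 1 with DESeq2, 1 with the replicate block and 2 without the control libraries numbered 2, and it ranged from 0 to 2 when single libraries were left out, with 2 reached without control IL-4 replicate 2. Over all genes, that difference had 559 calls in edgeR, 984 with the block, 1106 without the libraries numbered 2, and 363 and 366 without control IL-4 replicates 1 and 3. No other count over all genes or over the members moved by over 1.5 times. Same-numbered libraries had every correlation over 0.1 in 5 of 6 comparisons within a hairpin, and the lowest in the other was 0.096. The main fits had no block. In wild type cells and between the hairpins, libraries shared only a number. The block changed no further member count by over 1.5 times. Of 1362 list counts under alternatives, 79 moved by over 1.5 times. The cause of these changes was not tested.

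Signs changed in 85 values of 35 results of members or partners, none called: the lowest adjusted p of such a result was 0.486, and the largest changed value was 0.065 in size (log2). With no filter on low counts, values of the other sign were 0.010 for Dele1 (valinomycin on IL-4), -0.008 for Opa1 (IL-4 with PGE2 against no stimulus in wild type cells), 0.005 for Afg3l2 (IL-4 with valinomycin against no stimulus), 0.003 for Yme1l1 (IL-4 with valinomycin against no stimulus), -0.012 for Clpx (IL-4 with the Etv1 hairpin), -0.00028 for Dnaja3 (IL-4 with the Etv1 hairpin) and -0.009 for Spg7 (IL-4 with the Etv1 hairpin). With DESeq2's size factors in edgeR, values of the other sign were -0.001 for Opa1 (IL-4 with PGE2 against no stimulus in wild type cells) and -0.002 for Clpx (IL-4 with the Etv1 hairpin). With DESeq2, values of the other sign were -0.001 for Opa1 (IL-4 with PGE2 against no stimulus in wild type cells), -0.002 for Clpx (IL-4 with the Etv1 hairpin) and -0.00028 for Spg7 (IL-4 with the Etv1 hairpin). With only the groups of the contrast, values of the other sign were -0.009 for Opa1 (IL-4 with PGE2 against no stimulus in wild type cells), -0.005 for Clpx (IL-4 with the Etv1 hairpin), -0.003 for Spg7 (IL-4 with the Etv1 hairpin) and -0.006 for Oma1 (IL-4 with PGE2 against no stimulus with the Etv1 hairpin). Without the control libraries numbered 2, values of the other sign were 0.00036 for Spg7 (IL-4 with the control hairpin), -0.007 for Clpx (IL-4 with the Etv1 hairpin), -0.005 for Spg7 (IL-4 with the Etv1 hairpin), -0.005 for Spg7 (the hairpin difference of the IL-4 changes) and -0.009 for Oma1 (IL-4 with PGE2 against no stimulus with the Etv1 hairpin). The following ranges come from leaving out 1 library at a time. For IL-4 in wild type cells the ranges were -0.079 to 0.031 for Dele1 and -0.027 to 0.017 for Spg7. For PGE2 in wild type cells the ranges were -0.043 to 0.133 for Atf5. For valinomycin on IL-4 the ranges were -0.112 to 0.004 for Clpp, -0.057 to 0.049 for Dele1, -0.097 to 0.035 for Hspd1, -0.092 to 0.018 for Hspe1, -0.078 to 0.008 for Opa1 and -0.027 to 0.061 for Spg7. For IL-4 with PGE2 against no stimulus in wild type cells the ranges were -0.151 to 0.029 for Ddit3 and -0.019 to 0.026 for Opa1. For IL-4 with valinomycin against no stimulus the ranges were -0.064 to 0.029 for Afg3l2, -0.096 to 0.015 for Dele1, -0.032 to 0.056 for Spg7 and -0.021 to 0.029 for Yme1l1. For IL-4 with the control hairpin the ranges were -0.128 to 0.026 for Dele1, -0.011 to 0.070 for Grpel1, -0.043 to 0.027 for Spg7 and -0.123 to 0.015 for Yme1l1. For IL-4 with the Etv1 hairpin the ranges were -0.036 to 0.006 for Afg3l2, -0.031 to 0.019 for Atf4, -0.065 to 0.052 for Clpx, -0.013 to 0.055 for Dnaja3 and -0.016 to 0.051 for Spg7. For the Etv1 against the control hairpin with IL-4 the ranges were -0.004 to 0.065 for Afg3l2 and -0.110 to 0.040 for Clpp. For the hairpin difference of the PGE2 changes the ranges were -0.004 to 0.069 for Spg7. For the hairpin difference of the IL-4 changes the ranges were -0.127 to 0.006 for Hspe1, -0.026 to 0.130 for Oma1, -0.074 to 0.009 for Opa1 and -0.030 to 0.069 for Spg7. For IL-4 with PGE2 against no stimulus with the Etv1 hairpin the ranges were -0.056 to 0.025 for Dele1, -0.066 to 0.001 for Lonp1, -0.004 to 0.059 for Oma1 and -0.042 to 0.014 for Opa1. The simulated data had far fewer changed genes than were called in the real PGE2 comparisons. In them 75% of genes changed by 0.5 (log2) were recovered for the wild type comparison, and 57% for the control hairpin. What part depth has in this was not tested.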
